A study of Arabidopsis thaliana with 6 samples.

Results

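The miRNAs of parg1-1 seedlings were compared with those of wild-type (WT) seedlings of Arabidopsis thaliana, ecotype Col-0, at 10 days of age. The comparison used 4 of the 6 small RNA libraries of the series, with 1 library in each group: parg1-1 untreated, parg1-1 with 100 nM flg22, WT untreated and WT with 100 nM flg22. The remaining 2 libraries came from parp1parp2 seedlings. A day ahead of treatment the seedlings were transferred off plates into water, and small RNA was gel-selected from total RNA of whole seedlings. PARG1 itself is not measured by small RNA counts, so the genotype label could not be checked in these data, and the labels give no replicate cultures or pooling.

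PARG enzymes remove poly(ADP-ribose) chains that PARP enzymes attach to proteins, and flg22 is a peptide of bacterial flagellin that a plant surface receptor detects. Plant miRNAs are cut by DCL1 from hairpin precursors as a duplex of a mature strand and its partner, the star strand. The mature strand is usually loaded into AGO1 and guides cleavage or repression of matching transcripts, while most star strands are degraded. The study's title concerns DAWDLE, an FHA domain protein that acts with DCL1 in this processing.

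Of 679 deposited intervals (337 with a mature name, 334 with a star name and 8 TAS loci), 181 had at least 10 counts in at least 2 of the 4 libraries. Intervals with identical counts in all 6 libraries were counted once, which left 131 distinct sequences, 90 mature and 41 star. The other 498 intervals were under this minimum, 289 of them at 0 in all 4 libraries. At the edge of the filter, 9 sequences had a second-highest count of 10 or 11 and passed, and 10 had 8 or 9 and did not.

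Total counts over distinct sequences were 166308 and 165088 in parg1-1, untreated and with flg22, and 142289 and 187713 in WT. A count of 3, the most that a count of 0 allows, stood for 15.6 to 20.5 scaled CPM (counts relative to the TMM-adjusted library total) in these libraries, and this limit covers counting error only. The parg1-1 library with flg22 stood farthest from the WT libraries. The chi-square per degree of freedom of its counts was 93.9 against WT with flg22, 86.8 against untreated WT and 27.5 against untreated parg1-1, while the WT libraries differed from each other by 19.8. Results are therefore given for the untreated pair and the flg22 pair apart, and the untreated pair does not contain that library.

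The sequences on which the results turn are shown 5′ to 3′ from the TAIR10.1 reference, with bases 2 to 8, the seed, in capitals. miR162a and miR158a-star are the most abundant sequence that was higher in parg1-1 and the one with the largest increase, and the partner strand of each is shown with it.
miR162a: uCGAUAAAccucugcauccag
miR162a-star: gGAGGCAGcgguucaucgauc
miR158a: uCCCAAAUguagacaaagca
miR158a-star: cUUUGUCUacaauuuuggaaa
The next set holds sequences lower in parg1-1, with both strands of the miR845a duplex and of the loci whose strand balance moved. In this set miR170-star and miR824-star stood above WT and were not called.
miR845a: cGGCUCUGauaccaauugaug
miR845a-star: uCGAUUGCugucagagccacg
miR170: uGAUUGAGccgugucaauauc
miR170-star: uAUUGGCCugguucacucaga
miR824: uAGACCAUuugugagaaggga
miR824-star: cCUUCUCAucgauggucuaga
miR172a: aGAAUCUUgaugaugcugcau
miR397b: uCAUUGAGugcaucguugaug
miR157a: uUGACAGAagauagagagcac
miR167d: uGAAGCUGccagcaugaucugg
miR169h: uAGCCAAGgaugacuugccug

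Across the 4 libraries, parg1-1 was higher than WT for 3 sequences and lower for 15, out of 131 tested. The additive model of genotype and treatment thus called 13.7% of the tested sequences, 2.29% higher and 11.5% lower (edgeR quasi-likelihood test, two-sided, Benjamini-Hochberg adjusted p under 0.05), and 36 sequences had an unadjusted p under 0.05. The higher ones were miR158a-star, miR162a and miR866-3p. The lower ones spanned 12 families and included miR398a, miR169h, both strands of miR845a, miR170, miR159C, miR172a, miR397b and miR157a. Of these, miR845a-star, miR169h and miR170 reached the count minimum in the WT libraries alone, so the filter favoured a lower call for them. All 18 lay on the same side of WT in both pairs of libraries, against 82 of all 131. Both parg1-1 libraries were above or below both WT libraries for 74 of the 131 sequences (56.5%), so a lack of overlap was common and marks no sequence out. In these whole-seedling libraries, fewer cells that make a miRNA and less of it per cell cannot be told apart.

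**Figure D1:**
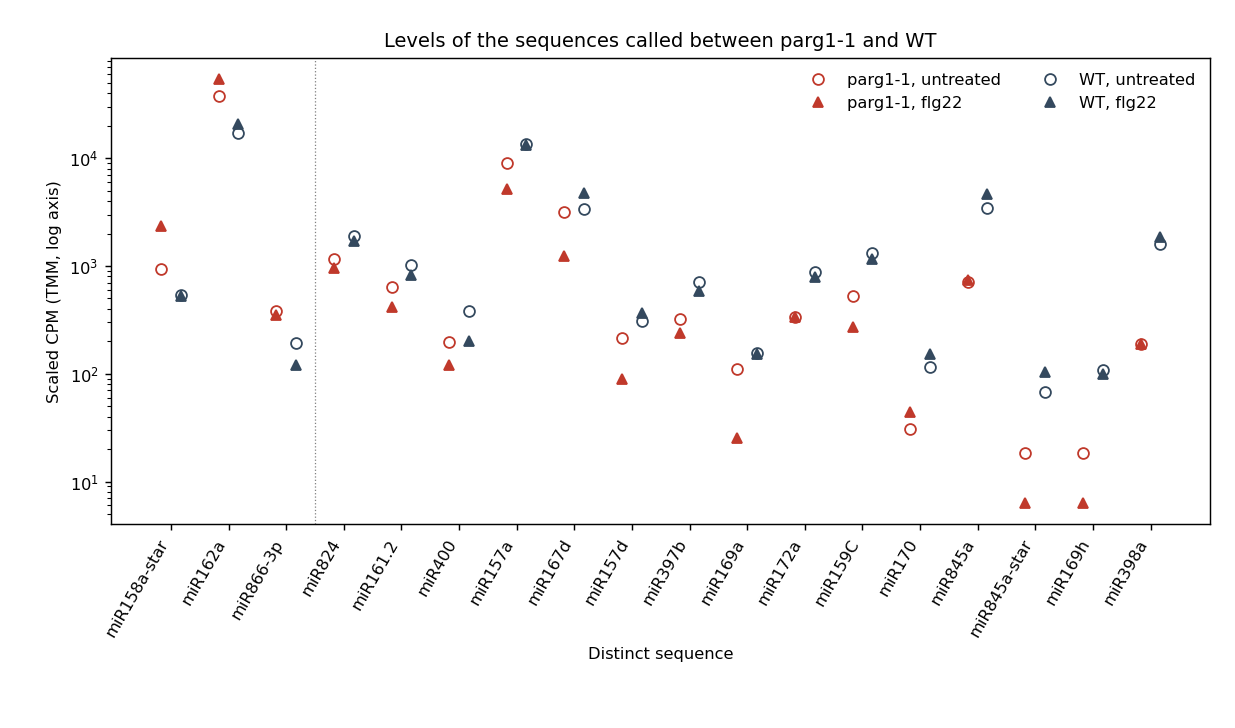
Scaled CPM (log axis) of the 18 called sequences, ordered by fold change; parg1-1 is in red and WT in dark blue, with open circles for untreated and filled triangles for flg22 libraries, 1 library per point. The dotted line separates the 3 sequences higher in parg1-1 from the 15 lower, and in none of the 18 do the points of the genotypes overlap.

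miR162a, which targets the transcript of DCL1, the enzyme that makes miRNAs, was the most abundant called sequence. It had 37750 scaled CPM in untreated parg1-1 and 53950 in parg1-1 with flg22, against 17010 and 20710 in WT. It made up 3.72% and 5.18% of tested counts in parg1-1 and 1.75% and 2.12% in WT. The level was 2.41 times that of WT, or 1.27 ± 0.25 in log2 (SE; adjusted p = 2.68e-05 by edgeR). The star strand was not called. miR162a-star had 25 and 25 counts in parg1-1 and 17 and 28 in WT (log2 fold change 0.24 ± 0.37, adjusted p = 0.799). The change of the mature to star balance was 1.02 ± 0.69 in log2 and was not called (adjusted p = 0.317). The miR162a sequence stands at 2 loci, and the one at AT5G08185 spans 2634936 to 2634956 of chromosome 5 (TAIR10, minus strand).

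The other tested regulators of the small RNA machinery did not pass. miR403, which targets AGO2, had 28610 and 30950 scaled CPM in parg1-1 and 21180 and 20140 in WT (log2 fold change 0.53 ± 0.25, adjusted p = 0.161). miR168a, which targets AGO1, had 2376 and 2270 scaled CPM in parg1-1 against 1899 and 2703 in WT, so the groups overlapped (log2 fold change 0.03 ± 0.29). With total-count scaling this small value of miR168a was -0.05. miR168a-star had 0.23 ± 0.28 and miR168b-star -0.11 ± 0.33. miR838, which arises from an intron of DCL1, had 7 and 6 counts in parg1-1 and 11 and 8 in WT and was under the count minimum. The list thus held 1 call, higher, among 6 tested sequences, beside 2.29% of all 131, with a median log2 fold change of 0.237, beside 0.033 over all 131.

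miR845a, of a family that matches primer-binding sites of retrotransposons, fell on both strands. The mature strand had 708.7 and 746.1 scaled CPM in parg1-1, against 3449 and 4640 in WT, and the parg1-1 libraries lay close together. Its log2 fold change was -2.46 ± 0.31 (adjusted p = 4.99e-11), which leaves 0.182 of the WT level. miR845a-star rested on 3 and 1 counts in parg1-1 and 10 and 20 in WT and was also called (-2.73 ± 0.85, adjusted p = 0.0162). It reached the count minimum of 10 in the WT libraries alone, so this call is no independent support for a fall. Its log2 ratios were -1.90 untreated (95% interval -4.40 to 0.06) and -4.04 with flg22 (-9.42 to -1.40). In an additive model over all 6 libraries, called the 6-library model here, miR845a-star was -3.95 without untreated WT and -1.75 without WT with flg22. The balance of the strands changed by 0.26 ± 0.54 and was not called (adjusted p = 0.879). miR845b, under the count minimum, had 1 and 1 counts in parg1-1 and 8 and 9 in WT.

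A sequence of another family resembles miR845a and was not called, and it was picked out after its values were seen. miR829.1, on chromosome 1 from 11834094 to 11834117, shares 13 consecutive bases with miR845a, which are in capitals here.
miR845a: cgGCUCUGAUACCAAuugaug
miR829.1: aGCUCUGAUACCAAaugauggaau
miR829.1 had 37 and 35 counts in parg1-1 and 19 and 42 in WT (log2 fold change 0.37 ± 0.32, adjusted p = 0.523). The miR845a sequence spans 12217457 to 12217477 of chromosome 4 (TAIR10, minus strand) at AT4G23387. The list of retrotransposon primer sites held 2 tested sequences, miR845a and miR845a-star, and not miR829.1. Both were called lower, beside 11.5% of all 131, with a median of -2.593, beside 0.033 over all 131. Of these, miR845a-star reached the count minimum in the WT libraries alone.

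Among the regulators of the change from juvenile to adult growth, 3 of 10 tested sequences fell, beside 11.5% of all 131, with a median of -0.211. miR172a, which targets AP2-like transcription factors, had 336 and 335.1 scaled CPM in parg1-1 and 874.3 and 791.6 in WT. Its log2 fold change was -1.31 ± 0.28 (adjusted p = 0.000134). The sequence miR172C, which differs from miR172a at 1 base, was also below WT but was not called (-0.67 ± 0.45). The assignment of reads between miR172a and miR172C is uncertain. miR157a, which targets SPL transcription factors, had 9048 and 5241 scaled CPM in parg1-1 against 13610 and 13270 in WT (-0.96 ± 0.28, adjusted p = 0.00803). The lower of the parg1-1 values is that of the flg22 library. miR157d had 35 and 14 counts in parg1-1 and 45 and 71 in WT (-1.21 ± 0.31), but it equals miR157a without the first base, so the assignment of reads between them is uncertain. miR157d in the 6-library model was -1.81 without untreated parg1-1 and -0.59 without WT with flg22. The related and more abundant miR156a, which also targets SPL transcripts, had 37010 and 37570 scaled CPM in parg1-1 and 35510 and 41280 in WT, and was not called (-0.04 ± 0.24). Of the star strands of the called miR157 and miR172 sequences, miR157C-star passed the count minimum, with 18 and 22 counts in parg1-1 and 12 and 19 in WT (0.46 ± 0.44, not called). miR157a-star had 5 and 7 counts in parg1-1 and 6 and 8 in WT, and miR172b-3p-star had 9 and 8 in parg1-1 and 7 and 7 in WT.

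In the list of leaf, meristem and polarity families, 1 of 20 tested sequences fell, beside 11.5% of all 131, and the median was 0.125. This was miR170, which targets SCARECROW-like transcription factors, with 5 and 7 counts in parg1-1 and 17 and 29 in WT (-1.82 ± 0.54, adjusted p = 0.0111). It reached the count minimum in the WT libraries alone, so this call is no independent support for a fall. Its star strand stood on the other side of WT, with 276 and 244 counts in parg1-1 and 170 and 194 in WT (0.57 ± 0.28, not called). The same star sequence also lies at the miR171a locus, so its reads cannot be assigned to one of them. miR171a, of the same seed as miR170, had 311 and 258 counts in parg1-1 and 312 and 366 in WT (-0.20 ± 0.28, not called). The mature sequences differ by C12U and C14U, counted from the 5′ end with the base of miR171a first.
miR170: ugauugagccgUgUcaauauc
miR171a: ugauugagccgCgCcaauauc
Per 1000 counts of miR171a, miR170 stood at 16.1 and 27.1 in parg1-1, against 54.5 and 79.2 in WT.

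Several fallen sequences are rare variants of an abundant miRNA, and their ratio to it is shown because a scaling factor of the library cannot move it. In the lines here capitals mark the bases that differ.
miR398a: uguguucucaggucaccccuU
miR398b: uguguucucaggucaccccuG
miR159C: uuuggauugaagggagcucCu
miR159b: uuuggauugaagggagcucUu
miR398a, which like miR398b targets copper/zinc superoxide dismutase transcripts, had 31 and 30 counts in parg1-1 and 234 and 360 in WT. This was 1.17 and 1.26 per 1000 counts of miR398b in parg1-1, against 7.74 and 9.82 in WT. The log2 fold change of miR398a was -3.19 ± 0.31 (adjusted p = 4.41e-16), while miR398b, the most abundant sequence, had -0.35 ± 0.20 (adjusted p = 0.235). In the 6-library model the value of miR398a was -3.98 without untreated parg1-1, -2.58 without parg1-1 with flg22 and -2.30 without untreated WT, and it was called in the first of these alone. miR398b had 161500 and 150200 scaled CPM in parg1-1 and 206500 and 190800 in WT.

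miR159C, of a family that targets MYB transcription factors, had 86 and 43 counts in parg1-1 and 194 and 224 in WT (-1.69 ± 0.28, adjusted p = 1.08e-06). Per 1000 counts of miR159b it stood at 5.64 and 2.32 in parg1-1 and at 13.1 and 14.2 in WT. miR159a and miR159b had values of -0.12 ± 0.21 and 0.20 ± 0.21 and were not called. miR159C in the 6-library model was -2.65 and called without untreated parg1-1, but -0.91 without parg1-1 with flg22 and -1.04 without untreated WT, neither of them called. The MYB list held this 1 call among 5 tested sequences, beside 11.5% of all 131, with a median of -0.124. Because miR398a and miR159C each differ at 1 base from a far more abundant sequence, the assignment of reads between them is uncertain. The star strands miR398a-star and miR159C-star had 0 counts in every library compared.

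miR167d, which targets auxin response factors, fell mainly in the flg22 pair. It had 3207 and 1246 scaled CPM in parg1-1, against 3401 and 4776 in WT, so the untreated libraries lay close together. The log2 ratio was -0.09 untreated (-0.26 to 0.10) and -1.94 with flg22 (-2.17 to -1.72), and the model value was -0.997 ± 0.307 (adjusted p = 0.0146). In the 6-library model it was -1.74 without untreated parg1-1, -0.28 without parg1-1 with flg22 and -0.31 without WT with flg22. Its star strand had 2 and 8 counts in parg1-1 and 6 and 15 in WT. miR167a, which has 1 mismatch to miR167d over their shared length, had -0.19 ± 0.25. miR167d was the only call among 14 tested sequences of the auxin list, beside 11.5% lower in all 131, and the list's median was -0.224. miR160a had 839 and 526 counts in parg1-1 and 898 and 1284 in WT (-0.63 ± 0.29, adjusted p = 0.149), and miR393a, which targets auxin receptors, had 21 and 10 in parg1-1 and 24 and 34 in WT (-0.86 ± 0.40, adjusted p = 0.149).

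Of the copper families, 2 of 8 tested sequences fell, beside 11.5% of all 131, with a median of -0.299. Beside miR398a this was miR397b, which targets laccases, with 53 and 38 counts in parg1-1 and 105 and 112 in WT (-1.21 ± 0.28, adjusted p = 0.000498). The star strand miR397b-star had 0 counts in every library compared. miR408, which targets transcripts of copper proteins, had 30390 and 34860 scaled CPM in parg1-1 and 19550 and 26540 in WT. Its log2 fold change of 0.51 ± 0.25 was above 0 and did not pass (adjusted p = 0.161), and miR408-star had -0.56 ± 0.28. miR408 was the 1 sequence of the 8 with a value above 0.

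In the phosphate, sulfate and nitrogen list 2 of 10 tested sequences fell, beside 11.5% of all 131, both of the miR169 family, which targets NF-Y transcription factor subunits. The list's median was -0.456. miR169h, a sequence that stands at 7 loci, had 3 and 1 counts in parg1-1 and 16 and 19 in WT (-3.01 ± 0.79, adjusted p = 0.00273). It reached the count minimum in the WT libraries alone, so this call is no independent support for a fall. Its log2 ratios were -2.58 untreated (-5.00 to -0.77) and -3.97 with flg22 (-9.35 to -1.32). miR169a had 18 and 4 counts in parg1-1 and 23 and 29 in WT (-1.26 ± 0.45, adjusted p = 0.0443), with the fall mainly in the flg22 pair. miR169a in the 6-library model was -2.40 without untreated parg1-1 and -0.63 without parg1-1 with flg22, and miR169h was -3.63 without untreated WT. miR395a, which targets sulfate assimilation genes, had 16 and 11 counts in parg1-1 and 12 and 53 in WT and did not pass (-1.01 ± 0.41, adjusted p = 0.0818). miR395b had -0.07 ± 0.27 and miR399b, whose target is PHO2, a regulator of phosphate uptake, had 0.02 ± 0.28.

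Among the families aimed at NLR receptor or PPR protein genes, 2 of 6 tested sequences fell, beside 11.5% of all 131, and the median was -0.104. miR161.2, which targets PPR genes, had 104 and 66 counts in parg1-1 and 149 and 160 in WT (-0.83 ± 0.27, adjusted p = 0.025). miR161.1, from the same precursor, had 45850 and 67770 scaled CPM in parg1-1 against 41080 and 39420 in WT, which lies on the other side of WT but was not called (0.47 ± 0.23, adjusted p = 0.17). miR400, in an intron of AT1G32583 on the same strand, had 32 and 19 counts in parg1-1 and 56 and 39 in WT. Its adjusted p of 0.04998 lay at the threshold (-0.87 ± 0.32), it was called in 2 of 8 alternatives on the 4 libraries, and in the 6-library model it was -0.19 without untreated WT. miR472 and miR825 had 0.11 ± 0.27 and -0.32 ± 0.31 and were not called.

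miR158a-star had the largest increase. It had 154 and 370 counts in parg1-1 and 78 and 102 in WT, or 940.8 and 2339 scaled CPM in parg1-1 against 532.8 and 531.2 in WT. It spans 3366391 to 3366411 of chromosome 3 (minus strand) at AT3G10745. The WT libraries were alike, and the flg22 library of parg1-1 was the highest. The log2 fold change was 1.51 ± 0.29 (adjusted p = 2.07e-05), with log2 ratios of 0.82 untreated (0.42 to 1.23) and 2.14 with flg22 (1.82 to 2.47). Without untreated parg1-1 the 6-library model gave 2.29 for miR158a-star, a call, and without parg1-1 with flg22 it gave 0.68, no call. The mature miR158a was also above WT in both pairs, with 100100 and 101900 scaled CPM in parg1-1 and 71310 and 63620 in WT, but narrowly missed the threshold (0.58 ± 0.22, adjusted p = 0.0515). The balance of its strands was not called (-0.91 ± 0.72 in log2, adjusted p = 0.44). The miR158 list held 1 call, higher, among 3 tested sequences, beside 2.29% of all 131, with a median of 0.585, beside 0.033 over all 131.

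The remaining calls were of families outside these lists. miR866-3p had 62 and 56 counts in parg1-1 and 28 and 23 in WT (1.26 ± 0.30, adjusted p = 0.00102), and its star strand had 4 and 2 counts in parg1-1 and 1 and 3 in WT. miR824, which targets the MADS-box gene AGL16, had 190 and 152 counts in parg1-1 and 280 and 328 in WT (-0.77 ± 0.28). Its adjusted p of 0.04998 also lay at the threshold. The miR824 sequence, at AT4G24415, overlaps an exon of AT4G24413 on the other strand, and without a stated strand rule reads of the strands cannot be told apart. miR843 had 25 and 47 counts in parg1-1 and 20 and 18 in WT and missed it (0.96 ± 0.35, adjusted p = 0.0515). In all, 45 of 47 sequences of these families were not called, beside 113 of all 131, and their median was 0.155, beside 0.033 over all 131.

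**Figure D2:**
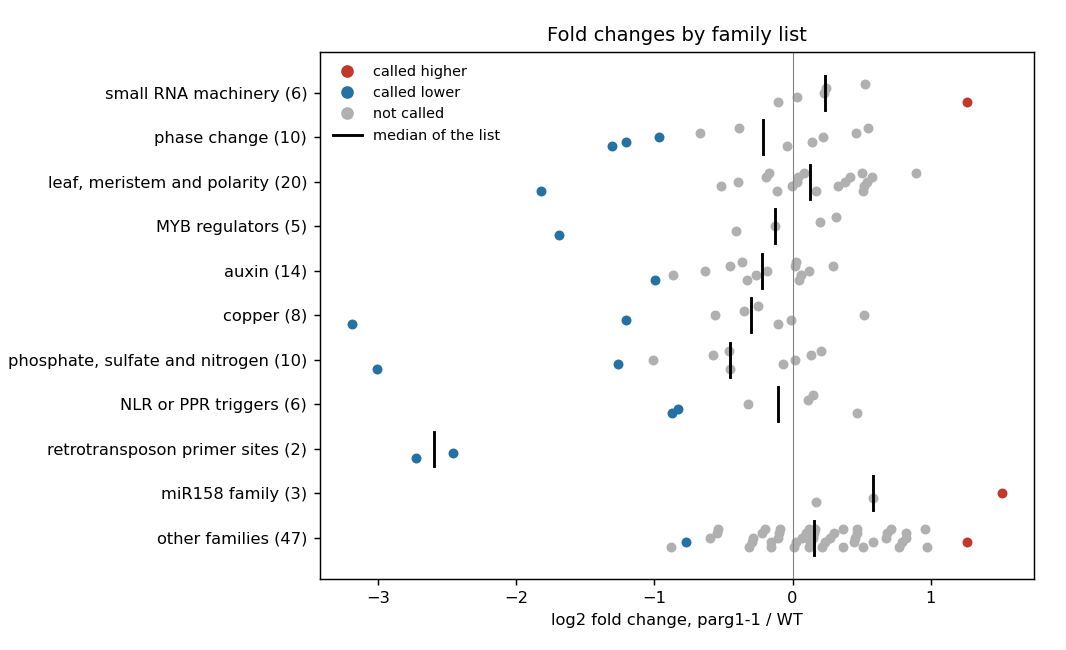
Log2 fold change (parg1-1 over WT) of every tested sequence by family list, with the number tested in brackets; red and blue points were called higher and lower, grey ones were not called, and black bars are medians. Calls are scattered over the lists, and apart from the small miR845 and miR158 lists the medians lie between -0.456 and 0.237.

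The mature and star counts of a locus come from the same library, so their balance does not depend on scaling between libraries. They need not come from the same precursor, because some sequences stand at several loci, as miR156a at 6 and miR166a at 7. A change of balance at such a locus may reflect another locus. Balance was tested at the 37 loci with enough counts of both strands, which hold 28 distinct mature and 36 distinct star sequences. The balance was called at 2 loci (5.41%), miR170 and miR824, at both towards the star strand. Mature miR170 reached the count minimum in the WT libraries alone, so the filter favoured a shift towards the star strand at this locus. At miR170 the mature share of mature and star counts was 1.78% and 2.79% in parg1-1, against 9.09% and 13.0% in WT, a log2 change of -2.40 ± 0.45 (edgeR adjusted p = 0.000172). The star sequence of miR170 also lies at the miR171a locus, and the same star counts enter both balances. The share of the miR170 duplex alone is therefore not known. At miR824 the mature share was 40.6% and 36.9% in parg1-1, against 58.5% and 60.9% in WT (-1.22 ± 0.26, adjusted p = 0.000734). There miR824 fell while miR824-star had 278 and 260 counts in parg1-1 and 199 and 211 in WT (0.45 ± 0.28, not called). With at least 20 counts of each strand required miR824 alone was called, and miR170 was not tested. With DESeq2 miR170 was called (adjusted p = 0.0219) and miR824 was not (adjusted p = 0.202). With all 6 libraries both were called, and miR157C also.

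The next loci by p were miR171a, with a mature share of 53.0% and 51.4% in parg1-1 and 64.7% and 65.4% in WT (-0.77 ± 0.26, adjusted p = 0.0547), and the miR157a sequence at its miR157C locus (-1.46 ± 0.50, adjusted p = 0.0547). miR393b followed (-1.004 ± 0.393, adjusted p = 0.111), where the star strand is the abundant one, with 972 and 866 counts in parg1-1 and 688 and 1123 in WT. Of the 37 loci, 27 had an estimate below 0, towards the star strand, and 10 above, with a median of -0.335. Loci that share a mature sequence are not independent, and no test was made of this count. The summed star share of all tested counts did not separate the genotypes, with 3.63% and 3.69% in parg1-1 and 3.82% and 3.41% in WT.

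**Figure D3:**
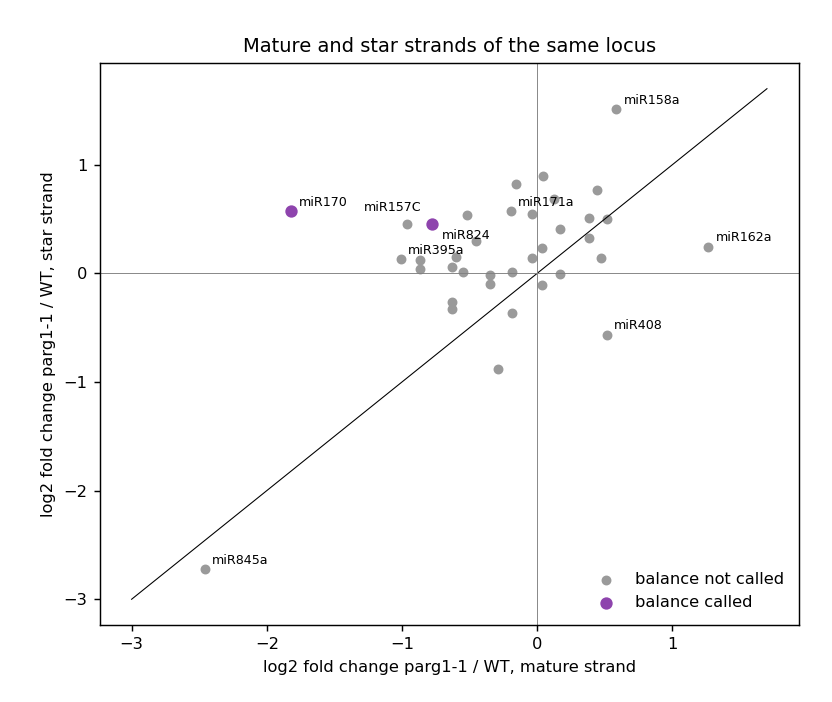
Log2 fold change (parg1-1 over WT) of the star strand (vertical axis) against that of the mature strand (horizontal axis) at 37 loci, with the diagonal of equal change; purple points are the loci with a called change of balance. miR845a lies near the diagonal with both strands lower, whereas miR170 and miR824 have a lower mature strand and a star strand above 0. The star sequence plotted for miR170 also lies at the miR171a locus.

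The untreated and the flg22 pair gave ratios that share no library. A sequence was taken as apart at a ratio of 2-fold or more, 50 or more counts in the larger value and a 95% interval without equality. This held for 6 sequences untreated (4.58%) and 13 with flg22 (9.92%). All 6 were among the 13, namely miR398a, miR845a, miR159C, miR172a, miR397b and miR162a. With flg22, miR158a-star, miR866-3p, miR157a, miR157d, miR167d, miR395a and miR160a were added. The ratio was larger with flg22 in 15 of the 18 called sequences, and the same share over all 131 was not counted. On the chi-square measure given above, the libraries of the flg22 pair differed by 93.9 and those of the untreated pair by 44.3. Whether larger ratios with flg22 set the called sequences apart from the rest was not tested. The interval of the difference between the pairs, which covers counting error only, excluded 0 for 7 of the 18, and for 43 of all 131. Among the called ones it was -1.85 for miR167d (-2.14 to -1.57), 1.32 for miR158a-star (0.81 to 1.82), -0.75 for miR157a (-0.90 to -0.60) and 0.23 for miR162a (0.14 to 0.32), in log2. With 1 library per group these differences have no replicate check and were not tested.

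**Figure D4:**
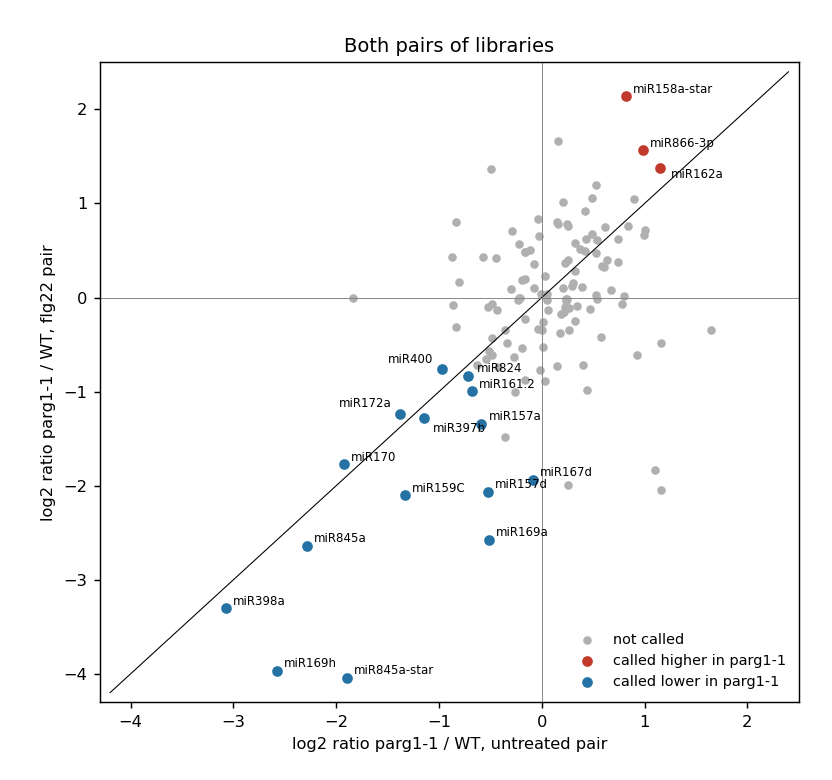
Log2 ratio of parg1-1 to WT in the flg22 pair (vertical axis) against the untreated pair (horizontal axis) for 131 sequences, with the diagonal of equal ratios; called sequences are coloured and named. The called sequences lie at lower left and upper right, and miR167d, miR157d and miR169a are low mainly in the flg22 pair.

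Features that had no part in the choice of sequences were set beside the fold changes. By first base, 12 of 75 sequences that begin with U were lower in parg1-1 and 1 was higher, and 0 of 23 that begin with G were called in either direction, beside 11.5% lower and 13.7% called in all 131. The median log2 fold change was 0.01 for U and 0.133 for G. Sequences of 22 nt had a median of 0.444, with 10 of 13 above 0, against 0.022 and 54 of 103 for 21 nt. miR167d, the called sequence of 22 nt, was lower. Star sequences had a median of 0.148 with 29 of 41 above 0, and mature ones -0.081 with 43 of 90 above 0. These are descriptions, and the classes overlap.

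The number of calls changed with the filter, the tool and the libraries used. With 1 residual degree of freedom, a single spread at each level of abundance was used for all sequences (infinite prior degrees of freedom). The value that edgeR names the biological coefficient of variation was 17.1%. With 1 library per group, this spread comes from the difference between the untreated and the flg22 ratios. It is not a spread among replicates, which was not measured. In every alternative that gave a value, each of the 18 sequences kept its sign. The alternatives refit the same libraries, and in all 18 both parg1-1 libraries already lay on one side of both WT libraries. A change of sign was thus hardly possible, and the kept signs are no added support. miR845a and miR398a were called in 9 of 9 alternatives on the 4 libraries, and miR162a, miR158a-star, miR159C and miR172a in 7 of 9. miR866-3p, miR157a and miR397b were called in 6 of 9, miR167d, miR161.2 and miR824 in 5 of 9, and miR169h and miR845a-star in 5 of 8. miR157d and miR170 were called in 4 of 8, miR169a in 3 of 8 and miR400 in 2 of 8. DESeq2 called 7 of the 18, namely miR398a, miR845a, miR162a, miR159C, miR158a-star, miR157a and miR172a. With all 6 libraries in the model and the same sequences, miR845a alone was called. From that 6-library model edgeR called 0 sequences when parg1-1 with flg22, untreated WT or WT with flg22 was left out, with 9, 27 and 13 at an unadjusted p under 0.05. It called 9 without untreated parg1-1.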

How the data were processed

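Small RNA libraries of whole seedlings were analysed from the read counts that the authors deposited, as whole numbers per interval with no normalization. The submitters' processing notes name TAIR10, Bowtie 0.12.8 and bedtools with no order or role. How reads were assigned to intervals, and whether by strand, is not stated in these sources. Sequences, strands and gene context were read from the TAIR10.1 reference of RefSeq, whose nuclear coordinates matched the annotated mature miRNAs.

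The quasi-likelihood test of edgeR 4.0.16 (two-sided, TMM scaling; R 4.3.3, limma 3.58.1) was applied to the counts, with terms for treatment and genotype on the 4 libraries, after the count minimum of 10 in 2 libraries. Adjusted p is by Benjamini-Hochberg over all 131 sequences. Strand balance was fitted on mature and star counts with library as a block and terms for strand, strand by treatment and strand by genotype, which leaves 1 residual degree of freedom. Ratios of single libraries use scaled counts with exact conditional binomial (Clopper-Pearson) 95% intervals. The interval of a difference of ratios is a normal approximation to the 4 counts. Intervals cover counting error only, since PCR reads without molecular identifiers are not independent molecules.

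Named sequences are those called in the 4-library or the 6-library fit, the 5 with the smallest p where under 5 were called in a direction, their partner strands, the 5 with most counts, the loci called for strand balance (or the 5 with the smallest p) and the miR162, miR168 and miR403 families. Other members of a list, and miR829.1, serve as examples and were picked after their values were seen. The members, lists and tests were chosen with earlier results of these data known. The labels name no separate cultures, so the p-values reflect the spread among these libraries alone, and that spread may be technical. In the 4-library fit it is the difference between the untreated and the flg22 ratios, and not a spread among replicates. Alternatives used other scalings, filters, DESeq2 1.42.0, limma voom and other sets of libraries.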

Additional observations from a re-analysis of the deposited data

Results flagged for a closer look

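For 7 sequences, none of them called (0), parg1-1 lay above WT in one treatment and below it in the other, with intervals that excluded equality in both pairs. These intervals cover counting error only, 1 library stands for each group, and the differences were not tested. The log2 ratio of parg1-1 to WT with flg22 minus that untreated was -0.881 for miR163, -0.588 for miR166a, -0.576 for miR168a and -0.195 for miR156a. It was 0.643 for miR5026, 0.627 for miR159b and 0.392 for miR398b-star. miR163 had 10930 scaled CPM untreated and 6664 with flg22 in parg1-1, against 9856 and 11070 in WT. miR166a, which targets HD-ZIP III transcription factors, had 103500 and 90550 in parg1-1 against 75000 and 98620 in WT.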

How the results depend on the processing

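No paired analysis was possible because each group holds 1 library and the labels give no replicate numbers. The count of 18 called sequences became 7 with DESeq2, 2 without a low-count filter, 2 with every locus as deposited, 1 with all 6 libraries and 11 without the treatment term. It was 0 to 9 when 1 of the 4 libraries was left out of the 6-library fit. Other scalings, a minimum of 50 counts and sums per family and strand gave 17 to 19. Alternatives chosen after seeing the data gave 15 with limma voom, 17 with a likelihood ratio test and 12 in the 6-library fit filtered over all 6 libraries. The cause of these changes was not tested. The 2 loci called for strand balance became 1 with a minimum of 20 counts and 1 with DESeq2. Small values of uncalled sequences changed sign. miR168a was -0.0465 with total-count scaling, -0.0295 without parg1-1 with flg22 and -0.2305 without untreated WT. miR168b-star was 0.0093 with 6 libraries, 0.0284 without untreated parg1-1 and 0.0915 without untreated WT. Without WT with flg22, miR159a was 0.0661 and miR159b -0.0888, and without untreated WT miR171a was 0.0372. The median of all sequences was 0.147 in the 6-library fit and 0.044 in that fit filtered over all 6 libraries, against 0.033. Counts of 1 to 3 in parg1-1 limit miR169h and miR845a-star.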

Other observations

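The parp1parp2 libraries entered the 6-library models only, and their own levels are given here as values with no test. miR845a had 45 and 30 counts in parp1parp2, untreated and with flg22, and miR845a-star had 1 and 0. miR162a had 2689 and 2287 counts, or 20950 and 19530 CPM scaled over all 6 libraries, on which scale parg1-1 had 36170 and 60660 and WT 16250 and 20050. miR398a had 41 counts in untreated parp1parp2 and 264 with flg22, and miR159C had 56 and 201.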
